A study of Mus musculus with 36 samples.

Results

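The late-numbered miRNAs described here are the mouse microRNAs (miRNAs) whose mature name carries a number of 3000 or above. A member needed a summed raw count of at least 180 over the 36 small RNA libraries, in the precursor line of that name with the most counts. Of 1966 mature miRNAs in the deposited count table, 987 have such a number, 598 of these had any count and 121 reached the minimum. The other 866 stayed below it. The members were chosen by their summed count, so their totals are given as a description. The 3 members just inside the minimum were miR-3960 with 180 counts, miR-7092-3p with 183 and miR-7214-5p with 184, and the 3 just outside were miR-6955-3p with 178, miR-3105-5p with 173 and miR-7235-3p with 172.

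The tissues sampled were liver and white fat of the epididymis (eWAT), from wild-type C57BL/6 male mice of the F1 generation, aged 24 weeks, which ate chow to 6 weeks of age and then a study diet for 18 weeks. Each tissue has 3 groups of 6 libraries, LF, HF and HFLF, whose diet tags are LFD, HFD and HFLFD. The treatment text gives LFD for every sample, so whether a group name refers to the mouse's own diet or to its father's cannot be told from the labels. Sample titles alone mark replicates as separate, and p-values therefore measure the spread between these samples, which may be technical.

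A miRNA is cut from a hairpin precursor by the nuclease Drosha and then by Dicer, and a mature strand of the 5p or 3p arm guides an Argonaute protein to target transcripts through its seed, bases 2 to 8. Numbers are assigned in order of submission to the miRNA registry, so high numbers mark miRNAs that were mostly recorded from deep sequencing after the abundant, conserved families. Several kinds of precursor depart from the usual path. A mirtron is a short intron that splicing itself releases as a hairpin, without Drosha, and some small nucleolar RNAs (snoRNAs), which guide chemical modification of other RNAs, are also cut into miRNA-sized pieces.

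Mature sequences from RefSeq, on build GRCm38.p6, matched 106 of the 121 members, and those of the members that carry the tissue results are shown 5′ to 3′ with the seed in capitals. Sequences of some of the most abundant members follow, in order of total count:
miR-3968: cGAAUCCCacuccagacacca
miR-3068-3p: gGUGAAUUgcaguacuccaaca
miR-5126: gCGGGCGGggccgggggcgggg
miR-6240: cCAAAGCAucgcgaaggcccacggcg
miR-3535: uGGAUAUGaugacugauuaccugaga
miR-6516-5p: uUUGCAGUaacagguguggaca
miR-8114: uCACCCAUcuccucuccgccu

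Those counted mostly in liver and those counted mostly in eWAT are shown next, and no seed recurs among them:
miR-3105-3p (liver): aCUGCUUAugagcuugcacucc
miR-12182-3p (liver): uAAUUAGGcucuggaucuguga
miR-12195-3p (liver): cAGACAAGacuguuauaccc
miR-12196-3p (liver): uCACAGGUgagcuagaaaguau
miR-6978-3p (liver): aCGGCUUCacucucacccugcag
miR-3095-3p (eWAT): uGGACACUggagagagagcuuuu
miR-7653-5p (eWAT): uAAGGGGCggacagacagacgg
miR-7034-3p (eWAT): uUGGCCUUccuucccuacccuaca
miR-3102-5p.2-5p (eWAT): gGUGGUGCaggcaggagagcc
miR-3086-5p (eWAT): uAGAUUGUaggcccauugga

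The 106 sequences held 105 distinct seeds. The single seed shared between members was that of miR-3473b and miR-3473e, whose first 18 bases are identical, and miR-3473a shares 16 bases with miR-3473b and 14 with miR-3473e, from its own first base on. These 3 are printed because their reads could be split between them:
miR-3473a: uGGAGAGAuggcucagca
miR-3473b: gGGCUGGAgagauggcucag
miR-3473e: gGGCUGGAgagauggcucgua
Exact copies of the miR-3473a sequence lay in transcripts of many other genes, as did those of miR-3473b, and their counts are uncertain for that reason as well. For 35 members the exact sequence occurred in an annotated transcript other than a miRNA. Transcripts of the host gene were included, so these need not be copies elsewhere. A pair of members shared a long stretch with an abundant earlier-numbered miRNA among the 456 compared. The first 17 bases of miR-3962 are those of let-7g-5p from its base 3 on, and 13 bases of miR-3964 from its base 6 on are in miR-142a-5p:
miR-3962: aGGUAGUAguuuguacauuu
miR-3964: aUAAGGUAgaaagcacuaaa
The total of miR-3962 was 576 counts against 15955201 for let-7g-5p, and that of miR-3964 was 1179 against 158649 for miR-142a-5p. Whether reads of the abundant miRNAs enter those of these members was not tested.

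The members were rich in guanine and cytosine compared with earlier-numbered miRNAs of the same minimum total, at a median of 52.4% against 45.6%. A content of 65% or more was found in 14 of 106 members (13.2%) and in 30 of 456 earlier-numbered miRNAs (6.58%). Over all 1679 mature sequences in the table the median was 52.2% and the share at 65% or more 13.2%, close to those of the members. All 22 bases of miR-5126 are G or C. Uridine, the base that Argonaute proteins prefer at the 5′ end, opened 51.9% of the members and 40.8% of the earlier-numbered set. The letters CCA ended 3 members (2.83%), miR-3968 among them, against 0.877% of the earlier-numbered set and 1.37% of all 1679 mature sequences in the table. These shares are descriptions of the sequences, and no test was made of them.

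The 121 members come from 105 precursors, and each has a position on GRCm38. A gene on the same strand holds 94 members, and for 91 of these it is protein-coding. In 46 members the precursor lies wholly within introns of a protein-coding gene, and in 36 it touches an exon or untranslated region or lies in a non-coding gene. For 26 there was no gene on the same strand. The precursors of 7 members overlap an annotated snoRNA or small Cajal body RNA, and those of 5 members span a whole intron to within 10 bases, the arrangement of a mirtron. Another miRNA lies on or within 10000 bases of the precursor of 12 members. By number, 48 members fall in the 3000s, 20 in the 5000s, 21 in the 6000s, 22 in the 7000s, 5 in the 8000s and 5 at 12000 or above.

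Total counts per library ran from 7866583 to 18832842. The labelled tissues matched their marker miRNAs. Marker levels are in counts-per-million units (CPM) after the scaling between libraries described below, so they are not shares of a library. The summed level of 6 hepatocyte miRNAs was at least 627405 CPM in each liver library and at most 4384 in each eWAT library. The 6 adipose and mesenchymal miRNAs summed to 100959 to 189450 CPM in eWAT and 12535 to 28955 in liver. Liver LF replicate 4 and liver HF replicate 6 stood apart. They held 22 and 28 of the 121 members, against 66 to 87 in the other 16 liver libraries, and these are the 2 libraries not found in the authors' log2 table for liver. They held 18 and 16 miRNAs with 1 to 9 counts, against 84 to 192 in the other liver libraries. In eWAT the summed level of 7 epithelial miRNAs reached 15476 CPM in LF replicate 4 and 13545 in LF replicate 1, against a median of 98.7 over the tissue. That of 7 germ cell and epididymis miRNAs reached 1833 CPM in LF replicate 1, against a median of 23.2. Each comparison below was repeated without these pairs of libraries.

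The late-numbered miRNAs were a small part of the small RNA of both tissues. Together they held 532043 counts, 0.112% of all counts. miR-3968 and miR-5099 made up 74.9% of that sum and the 10 highest members 87.0%. The median member had 419 counts over the 36 libraries, 29 had 1000 or more and 70 had fewer than 500. A count was found in all 36 libraries for 8 members. Of the 121, 103 had more raw counts in eWAT and 18 in liver, a tally that the scaling moves, as the tissue fit below shows. In all, 6 were counted in eWAT alone and miR-12195-3p in liver alone. In 12 members a single library held 20% or more of the counts, at most 110 of the 184 counts of miR-7214-5p, in eWAT HF replicate 6.

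The number of members with a count was 90 to 111 in the eWAT libraries, above each liver library. The same held over all miRNAs, with 699 to 849 counted in eWAT libraries and 316 to 633 in liver libraries, so it is not particular to the members. As CPM before any scaling, the members summed to 1108 to 1573 in eWAT and to 805 to 1302 in the 16 liver libraries, with 533 in liver LF replicate 4 and 376 in liver HF replicate 6. Without miR-3968 the sums were 419.7 to 615 in eWAT and 189 to 318 in all liver libraries, so the tissues did not overlap in the remainder on this scale. With each library divided by its factor from the trimmed mean of M-values (TMM), which assumes that most miRNAs do not differ, the direction turned. The remainder was then 297 to 385 CPM in eWAT with a median of 328, and 269 to 542 CPM in liver with a median of 403, and the tissues overlapped. Summed over all members, the medians were 836 CPM in eWAT and 1463 in liver by TMM. By group the median of the unscaled remainder was 289 in liver LF, 265 in liver HF, 291 in liver HFLF, 566 in eWAT LF, 506 in eWAT HF and 485 in eWAT HFLF.

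**Figure D1:**
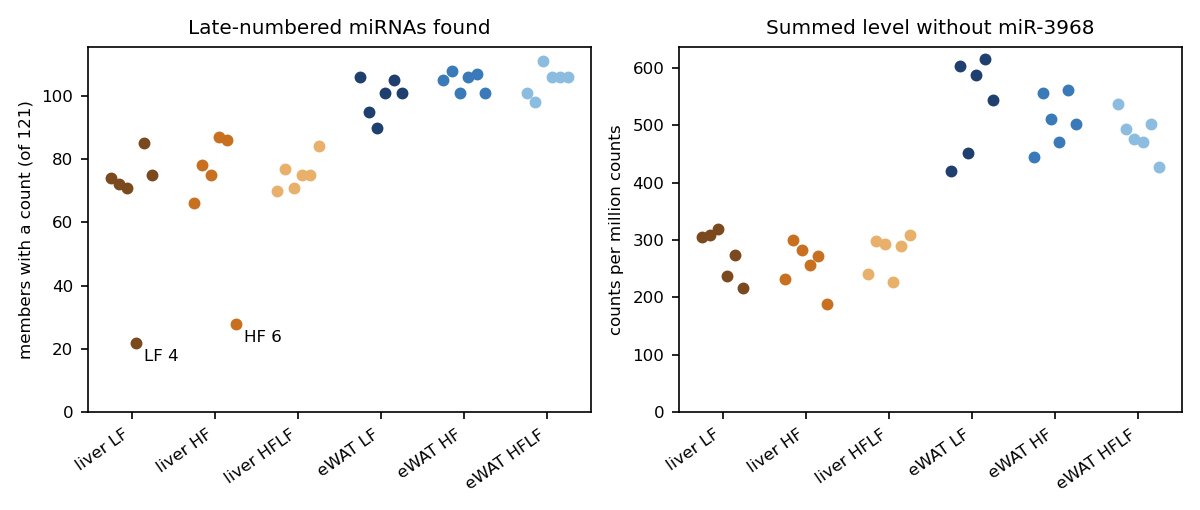
Left, members with at least 1 count in each library, of 121, by tissue and group. Right, summed CPM, before scaling, of the members without miR-3968. Each point is a library. Liver LF replicate 4 and HF replicate 6 lie at 22 and 28 members, below the 66 to 87 of the other liver libraries, and eWAT libraries hold 90 to 111. Over all miRNAs, eWAT libraries hold 699 to 849 and liver libraries 316 to 633. The separation in the right panel holds for unscaled CPM and not by TMM.

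The question of where each member is found was asked by comparing eWAT with liver over all groups. Levels below are TMM-scaled CPM. The TMM factors were 0.575 to 0.807 in liver and 1.37 to 1.68 in eWAT. Scaling by library totals alone moves the median log2 difference of all miRNAs up by 1.18. Differences in bulk tissue do not tell fewer cells of a type from less RNA per cell.

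miR-3968 was the most abundant member in both tissues. Its precursor lies at chr11:115447961-115448060 on the minus strand, opposite a coding exon of Trim80 and in no gene of its own strand. Its level in liver had a lowest value of 268, a median of 1334 in LF, 980 in HF and 912 in HFLF, and a highest value of 1535 CPM. In eWAT the medians were 560 in LF, 482 in HF and 471 in HFLF, within 415 to 692 CPM. The liver libraries were mostly above those of eWAT and the ranges overlapped through liver LF replicate 4 and HF replicate 6. It was lower in eWAT by TMM scaling (log2 difference -1.03 ± 0.13 SE, edgeR quasi-likelihood adjusted p = 2.32e-08) and not by library totals, which gave 0.16 (adjusted p = 0.277).

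miR-5099, at chr12:36816205-36816278 on the plus strand and outside annotated genes, was the next in both tissues. Liver levels had a lowest value of 66.1, a median of 145 and a highest value of 219 CPM, and eWAT levels 59.8, 73.5 and 125 CPM. The ranges overlapped. Its log2 difference was -0.89 ± 0.12 (edgeR adjusted p = 1.88e-08) and turned to 0.30 (adjusted p = 0.0149) by library totals. miR-5126, opposite an exon of Dner, ranged from 8.05 to 82.4 CPM in liver with a median of 33.8, and from 9.19 to 39.1 CPM in eWAT with a median of 22.3. Its log2 difference of -0.68 ± 0.24 (edgeR adjusted p = 0.0132) became 0.52 (adjusted p = 0.0505) by library totals. The direction of these 3 most abundant lower members therefore depends on the scaling.

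Of the other abundant members, miR-3535, miR-3105-3p and miR-12191-3p were called lower in eWAT and are described below, and 4 were called higher. miR-6240, at chr5:114851948-114852064 and outside annotated genes, had a lowest value of 0, a median of 4.52 and a highest value of 27.5 CPM in liver, and 12.5, 29.2 and 49.8 CPM in eWAT. The ranges overlapped, and it was higher in eWAT (log2 difference 2.02 ± 0.35, edgeR adjusted p = 4.35e-06). Its seed is that of miR-330-3p. miR-8114 lies in an untranslated region of Glul, the gene of glutamine synthetase, whose transcripts hold its exact sequence. It ran from 0 to 6.20 CPM in liver with a median of 1.69, and from 6.09 to 14.0 CPM in eWAT with a median of 9.93. Liver HFLF reached just above the lowest eWAT library, and the log2 difference was 2.40 ± 0.41 (edgeR adjusted p = 3.33e-06).

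miR-6238, outside annotated genes, ran from 0 to 7.17 CPM in liver with a median of 3.53, and from 3.70 to 18.1 CPM in eWAT with a median of 8.95. It differed by 1.51 ± 0.37 on the log2 scale (edgeR adjusted p = 0.000511). miR-7688-5p had a median of 0.381 CPM in liver, where 8 libraries held none, and of 8.08 CPM in eWAT, where it ran from 2.24 to 14.7. The highest liver value, 18.6 CPM in LF replicate 4, lay above every eWAT library. The log2 difference was 2.95 ± 0.60 (edgeR adjusted p = 5.75e-05), and 3.56 (adjusted p = 2.45e-07) without liver LF replicate 4 and HF replicate 6.

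**Figure D2:**
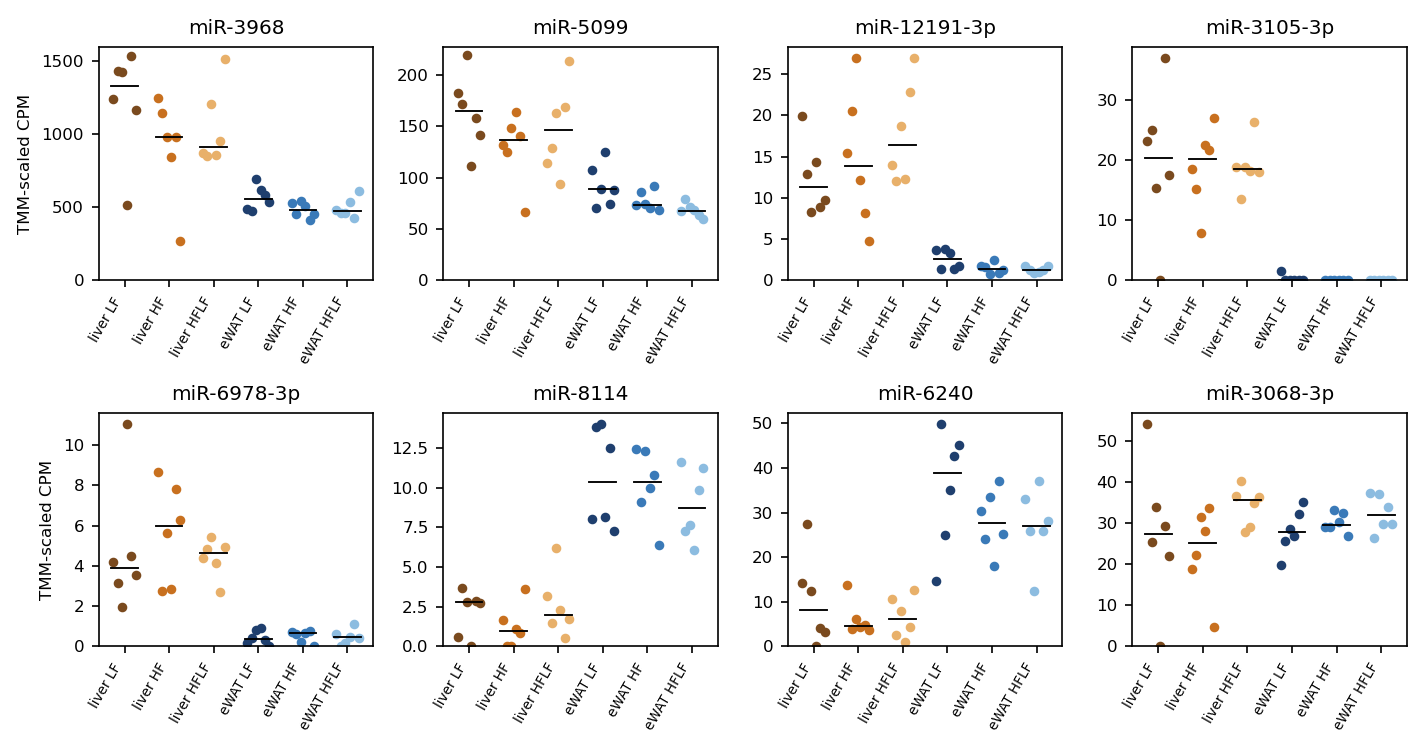
TMM-scaled CPM of 8 members in each of the 36 libraries, by tissue and group, on linear axes that start at 0. Points are libraries and bars are group medians. miR-12191-3p has no overlap between the tissues, miR-3105-3p is near 0 in eWAT, and the low points of miR-3968 are liver LF replicate 4 and HF replicate 6.

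The fit over both tissues kept 118 of the 121 members after the filter on low counts, and miR-3061-5p, miR-7214-5p and miR-7092-3p were not tested. Of the 118, 58 were called, 37 higher and 21 lower in eWAT. Counts in both tissues were found for 32 of the higher and 20 of the lower members. The others, at 0 in a tissue, reached the minimum total through the other tissue alone, so their values are descriptions. Over all 681 miRNAs tested 67.8% were called, 43.5% higher and 24.4% lower, so the members' share of 49.2% was below the background. Of the 118, 67 lay above 0 by TMM and 98 by library totals, so the direction of 31 turned with the scaling. The median log2 difference was 0.18 over the members and 0.46 over all miRNAs. Members at 0 in a tissue stay on the same side of the members' median when put at their bound, so that median could not move. By library totals 81 members were called, 85.2% of them higher, against 63.8% of the 58. The background by library totals was 80.3% of all miRNAs called, 71.4% higher and 8.96% lower. With that scaling 6 of the 21 lower members lay above 0. Those were miR-3968, miR-5099, miR-5126, miR-3535, miR-3962 and miR-3963. All 37 higher members stayed above 0 with that scaling.

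Within single groups the tissue test called 35 members in LF, 37 in HF and 35 in HFLF, against 47.4%, 49.6% and 48.6% of all miRNAs tested. Of the 58 members called over all groups, 22 were called in each of the 3 groups, and 56 had the same direction in all 3. These comparisons share libraries with the one over all groups. The ranges of 18 liver and 18 eWAT libraries were fully apart for 2 of the called members, miR-12191-3p and miR-6978-3p, both higher in liver. The shares of all miRNAs with separate ranges, or with calls or direction kept in all 3 groups, were not computed. These counts therefore describe the members only.

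**Figure D3:**
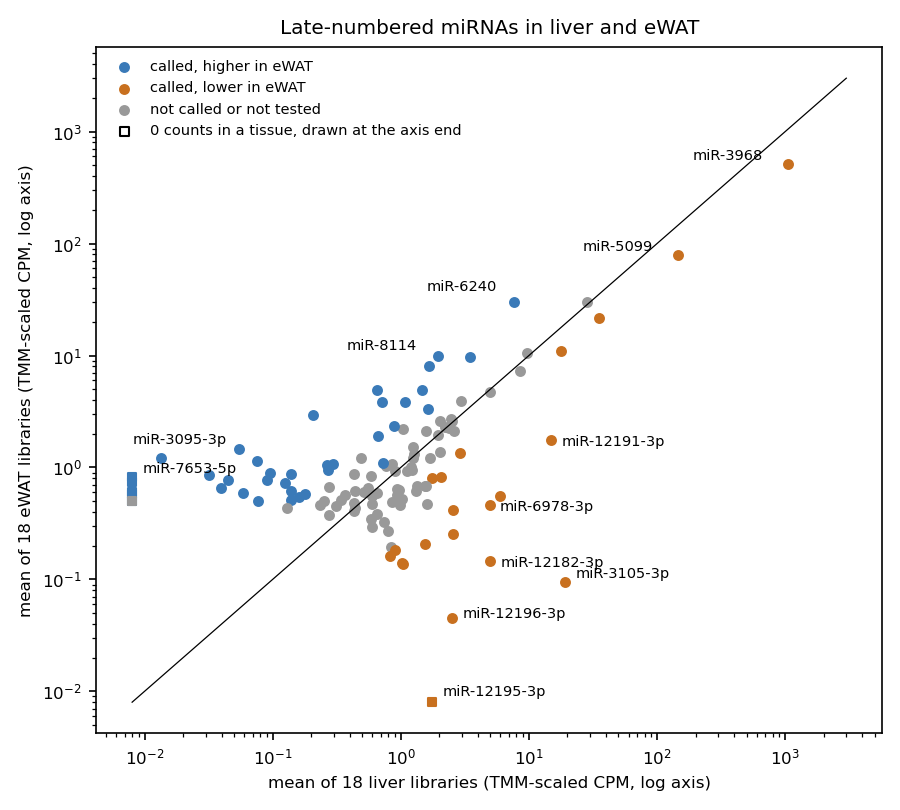
Mean level of each of the 121 members over 18 liver libraries (horizontal) and 18 eWAT libraries (vertical), in TMM-scaled CPM on log axes, with the line of equality. Blue and orange mark members called higher and lower in eWAT, and squares are members with no count in a tissue, drawn at the end of the axis. Most members lie below 10 CPM in both tissues, and miR-3968 and miR-5099 lie far above the rest.

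The members highest in liver relative to eWAT were led by miR-3105-3p, from chr7:144009254-144009338 on the plus strand, in an intron of Shank2, a scaffold protein best known from synapses. It had 3054 counts in liver and 41 in eWAT. Liver levels had a lowest value of 0, in LF replicate 4, a median of 18.7 and a highest value of 36.9 CPM, and 14 of 18 eWAT libraries held none, the highest being LF replicate 1 at 1.46 CPM. The log2 difference was -8.30 ± 0.69 (edgeR adjusted p = 5.09e-13). The other arm, miR-3105-5p, had 173 counts in liver and 0 in eWAT and fell just outside the minimum total.

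The 5 members numbered 12000 or above were all called lower in eWAT by both scalings, where 24.4% of all miRNAs were called lower by TMM and 8.96% by library totals. miR-12195-3p, at chr3:57317447-57317511 outside annotated genes, had 284 counts in 14 liver libraries and none in eWAT. It was at least 212-fold higher in liver by TMM scaling, against a floor of 3 counts over all eWAT libraries, and at least 94.3-fold by library totals (edgeR adjusted p = 1.28e-07 for the fit by TMM). This member reached the minimum total through liver alone, so the bound and p are descriptions. miR-12196-3p, at chr4:150797898-150797952 outside annotated genes, ran from 0 to 7.32 CPM in liver with a median of 2.22 and was at 0 in 16 eWAT libraries. The difference on the log2 scale was -6.80 ± 0.87 (edgeR adjusted p = 1.27e-07). Its eWAT counts were all in HF, so this value depends in part on the small prior count that the fit adds.

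miR-12182-3p, at chr11:86852604-86852658 outside annotated genes, was found in every liver library, from 0.917 to 10.2 CPM with a median of 5.04, and was at 0 in 11 eWAT libraries, the highest being 1.02 CPM. Its log2 difference was -5.17 ± 0.66 (edgeR adjusted p = 1.46e-08). miR-12191-3p, at chr18:34759519-34759597 over an untranslated region and intron of Fam53c, ran from 4.70 to 27.0 CPM in liver with a median of 13.5. In eWAT it ran from 0.740 to 3.78 CPM with a median of 1.48. The tissues did not overlap, and the log2 difference was -3.13 ± 0.25 (edgeR adjusted p = 9.38e-14). The fifth member of this number range, miR-12184-5p, lies in an intron of Gpld1, a phospholipase gene expressed in liver, and was also lower in eWAT (log2 difference -3.07 ± 0.89, edgeR adjusted p = 0.00258).

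A pair of liver members sit in introns of complement genes, which hepatocytes express strongly. miR-6978-3p, at chr17:57217172-57217228 on the minus strand, lies in an intron of C3, the central complement protein. It ran from 1.95 to 11.0 CPM in liver with a median of 4.44, and from 0 to 1.12 CPM in eWAT with a median of 0.445, with no overlap. It differed by -3.40 ± 0.45 on the log2 scale (edgeR adjusted p = 3.43e-08). miR-6972-3p, at chr17:34857569-34857632 on the minus strand, lies in an intron of Cfb, complement factor B. It had a median of 2.57 CPM and a highest value of 4.51 in liver, was at 0 in 2 liver libraries, and had a median of 0.116 and a highest value of 0.843 CPM in eWAT. The difference on the log2 scale was -3.58 ± 0.63 (edgeR adjusted p = 5.64e-06).

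miR-7219-3p, in an untranslated region of Fam210a at chr18:68260920-68260973, ran from 0 to 9.96 CPM in liver with a median of 6.39 and from 0 to 2.14 CPM in eWAT with a median of 0.468. Its log2 difference was -3.52 ± 0.55 (edgeR adjusted p = 6.65e-07). The direction of these 8 liver members was the same by library totals.

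The members highest in eWAT relative to liver were scarcer. Those with no count in liver reached the minimum total through eWAT alone, so their bounds and p are descriptions. miR-7653-5p, in Tlcd1 at chr11:78178827-78178887 on the plus strand, had 292 counts in 17 eWAT libraries and none in liver, which is at least 42.2-fold higher in eWAT. Its eWAT median was 0.649 and its highest value 1.89 CPM (edgeR adjusted p = 1.83e-07). miR-7034-3p, whose precursor at chr5:135735806-135735889 spans a whole intron of Tmem120a, had 271 counts in eWAT and none in liver, at least 37.8-fold higher. Its eWAT median was 0.493 and its highest value 2.22 CPM (edgeR adjusted p = 4.44e-06).

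miR-3102-5p.2-5p, from an intron of Arhgef17 at chr7:100882306-100882409, had 209 counts in eWAT and none in liver, at least 30.8-fold higher (edgeR adjusted p = 1.86e-05). miR-3086-5p, in an intron of Hspa12a at chr19:58911673-58911759, had 203 counts in eWAT and none in liver, at least 29.9-fold higher (edgeR adjusted p = 2.14e-05). miR-3072-3p, at chr12:109747878-109747960 in the long non-coding RNA Mirg, lies among the miRNAs of the imprinted Dlk1-Dio3 domain, which are expressed from the maternal chromosome. It had 194 counts in 15 eWAT libraries and none in liver, at least 26.0-fold higher (edgeR adjusted p = 1.68e-05). The median level of these 3 in eWAT was 0.600, 0.478 and 0.358 CPM, so each rested on few reads per library.

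The last 3 of the 8 members with the largest difference toward eWAT had a few counts in liver. Nearly all of their counts came from eWAT, through which they reached the minimum total, so their values are descriptions as well. miR-3095-3p, in an intron of Lpar1, a lysophosphatidic acid receptor gene, at chr4:58441012-58441098, had 426 counts in eWAT and 2 in liver. That is a ratio of 90.3 on the TMM scale, with an exact 95% interval of 24.8 to 748 that covers counting error only. Its levels in eWAT ran from 0 to 3.64 CPM with a median of 0.913 (edgeR adjusted p = 1.32e-07). miR-7236-3p, in an intron of Rab40b, had a median of 0.732 CPM in eWAT and a count in 1 liver library (log2 difference 5.33 ± 0.76, edgeR adjusted p = 6.59e-07). miR-3081-3p, in an intron of Boc, a receptor of the hedgehog pathway, had a median of 0.662 CPM in eWAT and a count in 1 liver library (log2 difference 5.16 ± 0.85, edgeR adjusted p = 6.13e-06). Liver HF and HFLF were at 0 for miR-7236-3p, as were liver LF and HF for miR-3081-3p. Both fitted values therefore depend in part on the prior count.

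**Figure D4:**
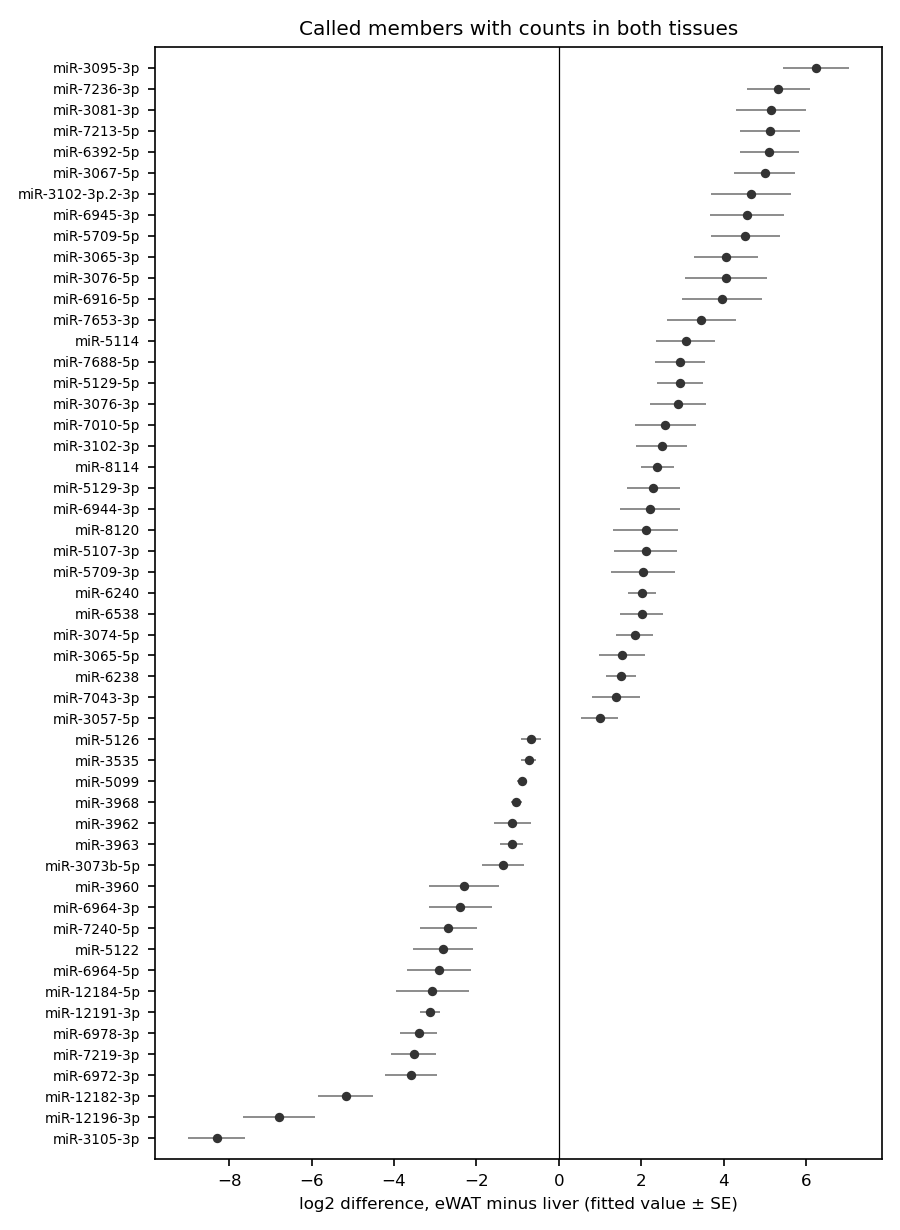
Log2 difference, eWAT minus liver, for the 52 called members with counts in both tissues. Points are fitted values by TMM scaling and bars are standard errors. Where a diet group of a tissue is at 0, the value and bar depend in part on the prior count. The 32 members above 0 are spread from about 1 to 6, and the 20 below 0 reach -8.30 for miR-3105-3p. By library totals miR-3968, miR-5099, miR-5126, miR-3535, miR-3962 and miR-3963 move above 0.

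By kind of precursor, the members tested in introns alone were called higher in eWAT in 13 of 45 cases and lower in 6. Those with an exon, untranslated region or non-coding gene on their strand were called higher in 13 of 34 cases and lower in 3, and those outside any gene of their strand higher in 6 of 26 and lower in 10. Over all miRNAs tested 43.5% were higher and 24.4% lower. The 5 members that span an intron end to end were all called higher by both scalings. They come from 3 introns, since 3 of them are arms of miR-3102. miR-3102-3p had a median of 3.64 CPM in eWAT against 0.179 in liver (log2 difference 2.50 ± 0.61, edgeR adjusted p = 0.000528). miR-6944-3p, from Dbn1, which codes for the actin-binding protein drebrin, had a median of 0.903 CPM in eWAT and of 0 in liver. It differed by 2.22 ± 0.73 on the log2 scale (edgeR adjusted p = 0.00707), although liver LF replicate 4 held 10.6 CPM, above every eWAT library.

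Of the 7 members over a snoRNA or small Cajal body RNA, none was called higher in eWAT and miR-3535 was called lower by TMM scaling, against 43.5% and 24.4% of all miRNAs. By library totals 6 of the 7 were called higher, miR-3535 among them, against 71.4% of all miRNAs, so the direction of 4 turned with the scaling. miR-3535 overlaps a snoRNA in Ncl, the nucleolin gene, at chr1:86351981-86352127. It ran from 4.70 to 31.6 CPM in liver with a median of 17.3 and from 7.08 to 19.3 CPM in eWAT with a median of 9.88. Its log2 difference of -0.73 ± 0.18 (edgeR adjusted p = 0.000598) turned to 0.48 (adjusted p = 0.0125) by library totals.

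miR-3068 lies over an annotated snoRNA in an intron of Alkbh1 at chr12:87437679-87437757. Its 3p arm ran from 0 to 54.0 CPM in liver with a median of 29.1, and from 19.6 to 37.2 CPM in eWAT with a median of 29.8. The log2 difference of the 3p arm was 0.11 ± 0.28 (edgeR adjusted p = 0.756), 1.30 (adjusted p = 0.000112) by library totals and -0.17 without liver LF replicate 4 and HF replicate 6. The 5p arm had medians of 8.94 CPM in liver and 6.78 in eWAT, with a log2 difference of -0.20 ± 0.31 (edgeR adjusted p = 0.590), which turned to 0.99 (adjusted p = 0.00479) by library totals.

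miR-6516-5p, over a small Cajal body RNA in Snhg20 at chr11:117077348-117077457, had medians of 8.58 CPM in liver and 10.6 in eWAT. The difference on the log2 scale was 0.12 ± 0.20 (edgeR adjusted p = 0.634) and 1.32 (adjusted p = 4.90e-07) by library totals. Both arms of miR-3084, in Cbwd1, were not called by TMM (log2 difference -0.06 for the 5p arm and -0.07 for the 3p arm). By library totals both turned to 1.12 (edgeR adjusted p = 0.00547 for the 5p arm and 0.0149 for the 3p arm). miR-5121, over Snord33 in the ribosomal protein gene Rpl13a, was not called by either scaling. Reads of these members and of the snoRNAs they overlap cannot be told apart in the counts.

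Among members beside another miRNA, miR-3074 is transcribed from the strand opposite miR-24-1. Its 5p arm averaged 1.09 ± 0.867 CPM in liver and 3.87 ± 1.13 in eWAT (SD, n = 18 each), against 1777 ± 404 and 3399 ± 475 CPM for miR-24-3p. The other arm of miR-24-1, miR-24-1-5p, was lower in eWAT, at 17.3 ± 4.78 CPM in liver and 10.5 ± 3.26 in eWAT. The log2 difference of miR-3074-5p was 1.85 ± 0.45 (edgeR adjusted p = 0.000432). miR-3065 likewise lies opposite miR-338. Its 5p arm averaged 0.667 ± 0.702 CPM in liver and 1.89 ± 0.868 in eWAT (SD, n = 18 each), with a log2 difference of 1.53 ± 0.56 (edgeR adjusted p = 0.0157). Its neighbour miR-338-5p averaged 27.8 ± 12.2 CPM in liver and 27.0 ± 5.41 in eWAT. The other arm, miR-338-3p, averaged 3.76 ± 2.20 CPM in liver and 6.20 ± 2.19 in eWAT.

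Both arms were members for 15 precursors. The share of the 5p arm was 25.2% of the counts of miR-3068 in liver and 19.6% in eWAT, and 68.6% and 67.2% for miR-3084. The log2 ratio of the arms could be tested for these 2, which had 10 or more counts of each arm in 30 or more libraries. The eWAT minus liver difference was -0.42 ± 0.33 for miR-3068 (2-sided permutation test, p = 0.223, adjusted p = 0.447) and 0.02 ± 0.62 for miR-3084 (permutation p = 0.975, adjusted p = 0.975). Without liver LF replicate 4 and HF replicate 6 the differences were -0.063 and 0.30. Neither difference exceeded the spread between libraries. For the others the counts were too few, and the 5p share ran in liver from 0% for miR-7653, of 13 counts, to 93.5% for miR-3065.

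The diet groups were compared within each tissue. No member was called in any of the 6 comparisons by edgeR's quasi-likelihood test, and the background was 0% of miRNAs in each of them. Low counts left 64 members tested in liver, of 478 miRNAs, and 102 in eWAT, of 638. In 53 cases the member was tested in both tissues, in 11 in liver only and in 8 in neither. At an unadjusted p under 0.05 there were 3, 2 and 0 members in liver for HF against LF, HFLF against LF and HFLF against HF (of 16, 14 and 5 miRNAs), and 4, 3 and 0 in eWAT (of 49, 98 and 21).

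The closest was miR-5099 in eWAT. It ran from 59.8 to 78.6 CPM in HFLF with a median of 67.7 and from 70.1 to 125 CPM in LF with a median of 88.4. The groups overlapped, and the log2 difference was -0.44 ± 0.13 (edgeR adjusted p = 0.0994). DESeq2 gave -0.47 and called it (adjusted p = 0.0404), and edgeR called it without eWAT LF replicate 2 (-0.56, adjusted p = 0.0490) and without eWAT LF replicate 5 (-0.54, adjusted p = 0.0412). With 1 library left out at a time its adjusted p ran from 0.0412 to 0.235. The highest LF values were 125 CPM in replicate 4 and 107 in replicate 1, against 70.1 to 89.1 in the other 4 libraries, and these are the 2 libraries with high epithelial miRNAs. Without them the difference was -0.25 (edgeR adjusted p = 0.716). In HF the median was 73.5 CPM, within 68.1 to 92.1.

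The other members with the smallest p between HFLF and LF in eWAT were all lower in HFLF. miR-12191-3p had medians of 1.26 CPM in HFLF and 2.55 in LF (log2 difference -0.97 ± 0.40, edgeR adjusted p = 0.228). miR-5101, in a coding exon of Syne2, had medians of 1.35 and 2.91 CPM (log2 difference -0.89 ± 0.37, edgeR adjusted p = 0.231). miR-3535 had medians of 9.10 and 12.8 CPM (log2 difference -0.42 ± 0.20, edgeR adjusted p = 0.325). The groups overlapped in each. In LF, miR-5101 was highest in replicates 4 and 1, at 4.02 and 3.74 CPM, as was miR-3535, at 19.3 and 13.8 CPM. Without these 2 libraries, which have high epithelial miRNAs, the differences were -0.54 for miR-5101 (edgeR adjusted p = 0.929), -0.23 for miR-3535 (adjusted p = 0.935) and -0.70 for miR-12191-3p (adjusted p = 0.914).

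Between HF and LF in eWAT the smallest p belonged to miR-3057-5p, in Apba3, which ran from 2.77 to 5.69 CPM in HF with a median of 4.44 and from 0.910 to 4.71 CPM in LF with a median of 2.08. Its log2 difference was 0.87 ± 0.36 (edgeR adjusted p = 0.420). miR-3535 had medians of 9.60 CPM in HF and 12.8 in LF (log2 difference -0.46 ± 0.20, edgeR adjusted p = 0.556, and -0.25 without LF replicates 1 and 4), and it was the one member named in both eWAT comparisons with LF, which share the LF libraries. miR-3087-3p had medians of 0.300 and 1.03 CPM and miR-3963 of 0.971 and 1.79 CPM (edgeR adjusted p = 0.647 for each). All 4 overlapped between the groups.

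Between HFLF and HF in eWAT the 4 members with the smallest p were miR-3065-5p (medians of 2.17 CPM in HFLF and 1.58 in HF), miR-3082-3p (1.22 and 0.782), miR-7219-3p (0.531 and 0.169) and miR-7021-5p (0.209 and 0.815). Each had an edgeR adjusted p of 0.997, and the groups overlapped in each.

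Between HF and LF in liver, each of the 4 members with the smallest p had 1 library far from its group. miR-7688-5p had medians of 0 CPM in HF and 0.650 in LF, where replicate 4 held 18.6 CPM (log2 difference -4.08 ± 1.63, edgeR adjusted p = 0.998). Without liver LF replicate 4 and HF replicate 6 the difference was -1.08 (adjusted p = 0.974). miR-3970, opposite an intron of Rnls, had medians of 1.48 and 2.39 CPM, with 24.7 CPM in LF replicate 4. Its log2 difference of -2.35 ± 0.96 (edgeR adjusted p = 0.998) became -0.45 (adjusted p = 0.974) without that pair of libraries.

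miR-6412 had medians of 0.871 CPM in HF and 3.07 in LF, with 13.7 CPM in LF replicate 4, and its log2 difference moved from -2.29 to -0.997 without the pair. miR-3572-3p, in Cnot3, had medians of 1.22 and 0.560 CPM, with 8.12 CPM in HF replicate 6, and moved from 2.23 to 0.56. Neither was called (edgeR adjusted p = 0.998 for both with all libraries).

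Between HFLF and LF in liver miR-3970 had medians of 0.830 and 2.39 CPM, and its log2 difference moved from -2.32 to -0.64 without the pair. miR-8112, in an untranslated region of Krcc1, had medians of 0 and 0.452 CPM with 11.0 CPM in LF replicate 4, and moved from -2.77 to -0.26. miR-7667-5p, with medians of 1.43 and 0 CPM, and miR-6964-5p, with medians of 1.36 and 0.120 CPM, changed little, from 2.97 to 2.82 and from 1.98 to 1.72. All 4 had an edgeR adjusted p of 0.989 with all libraries.

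Between HFLF and HF in liver miR-7083-5p had medians of 0.807 CPM in HFLF and 0 in HF, miR-5113 of 3.36 and 1.34, miR-3060-3p of 3.04 and 0.544 and miR-12184-5p of 1.59 and 0. Each had an edgeR adjusted p of 0.999, and the groups overlapped. Over the members tested the median log2 difference was -0.19 for HF against LF, -0.01 for HFLF against LF and 0.16 for HFLF against HF in liver, and 0.0023, 0.13 and 0.05 in eWAT. The medians over all miRNAs tested lay between -0.04 and 0.04 in the 6 comparisons.

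**Figure D5:**
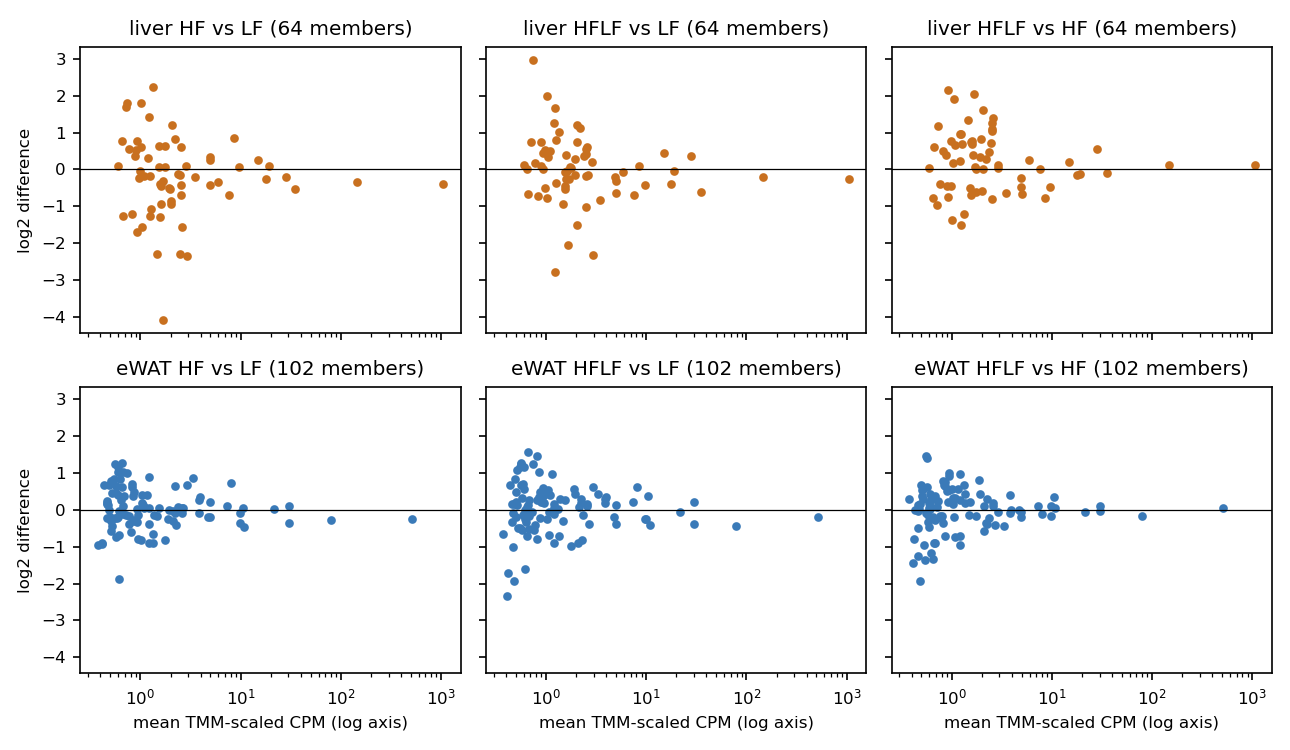
Log2 difference between diet groups against the mean level in the tissue (TMM-scaled CPM, log axis) for the 64 members tested in liver (top) and the 102 tested in eWAT (bottom). Each point is a member. Differences spread most widely below 3 CPM, to -4.08 for miR-7688-5p in liver, and none was called.

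Whether a diet difference itself differed between the tissues was tested with an interaction term over all 36 libraries. No member was called of the 118 tested by edgeR, against 2.5% of 681 miRNAs for HF and 1.91% for HFLF. At an unadjusted p under 0.05 there were 13 members for HF (11% of those tested) and 11 for HFLF (9.32%), against 13.1% and 11.7% of all miRNAs. For HF the smallest p was that of miR-7688-5p, with a median of 0.650 CPM in liver LF, 0 in liver HF, 4.96 in eWAT LF and 10.2 in eWAT HF. Its interaction was 4.47 ± 1.46 on the log2 scale (edgeR adjusted p = 0.101), and 1.61 (adjusted p = 0.618) without liver LF replicate 4 and HF replicate 6. DESeq2 called it (adjusted p = 0.0140), as it did miR-6944-3p (adjusted p = 0.0433). edgeR called miR-7688-5p without liver HF replicate 5 (interaction of 5.90, adjusted p = 0.0442).

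miR-6944-3p had 5 of 6 liver HF libraries at 0 and 10.6 CPM in liver LF replicate 4, and its interaction moved from 5.18 (edgeR adjusted p = 0.140) to 2.19 (adjusted p = 0.618) without the pair. miR-5114, in the desaturase gene Scd2, was at 0 in all 6 liver HF libraries and had a median of 0.172 CPM in liver LF, 1.05 in eWAT LF and 0.775 in eWAT HF (edgeR adjusted p = 0.128). miR-6392-5p, in an intron of the lipid droplet enzyme gene Pnpla3, was at 0 in all 6 liver LF libraries and had a median of 0.314 CPM in liver HF, 1.77 in eWAT LF and 2.86 in eWAT HF (edgeR adjusted p = 0.146). Fitted interactions of members with a group at 0 depend on the prior count and are not given.

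For HFLF, miR-12191-3p had medians of 11.3 CPM in liver LF, 16.4 in liver HFLF, 2.55 in eWAT LF and 1.26 in eWAT HFLF. Its interaction was -1.50 ± 0.56 (edgeR adjusted p = 0.201). The groups overlapped in both tissues. miR-3067-5p, in an intron of Smoc1, was at 0 in all 6 liver LF libraries and had a median of 0.179 CPM in liver HFLF, 0.577 in eWAT LF and 1.08 in eWAT HFLF (edgeR adjusted p = 0.192). miR-7236-3p was at 0 in all 6 liver HFLF libraries (edgeR adjusted p = 0.194) and miR-6916-5p in all 6 liver LF libraries (edgeR adjusted p = 0.201), and each had a median under 2 CPM in every eWAT group.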

How the data were processed

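Small RNA libraries of 18 liver and 18 eWAT samples were counted per mature miRNA. Per the labels' protocols, total RNA entered the NEXTFLEX kit, and per the submitters' processing notes reads were handled with cutadapt and Bowtie on GRCm38.p6. For versions, settings and the miRNA annotation release, nothing is stated in the sources used. The authors deposited raw read counts in 2118 lines of mature name and precursor, with CPM columns beside them, and log2 tables that hold 2 members each. The deposited CPM and log2 values were not tested. Column letters C, H and R were read as LF, HF and HFLF, and L and W as liver and eWAT.

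Where a mature name had several lines, the one with the most counts was kept. Counts were tested with edgeR 4.0.16 in R 4.3.3 (TMM, filterByExpr with minimum count 10 and total 15, robust quasi-likelihood F test) over all miRNAs, and a call needed a Benjamini-Hochberg adjusted p below 0.05. Each tissue was fitted with its 18 libraries for diet groups, and all 36 libraries for tissues and interactions. The floor is 3 counts over a tissue. Intervals and floors cover counting error only, since PCR copies are not separate molecules where no molecular identifier was counted. Arm ratios (0.5 added to each count) were compared by permutation with 100000 resamples in scipy 1.17.1. The scripts were tested on simulated counts of all miRNAs that passed the filter. For HF against LF in liver, 37.8% of 2-fold and 64.5% of 4-fold changes were called in the right direction. In eWAT these shares were 56.5% and 73.1%, and for eWAT against liver in LF 30.7% and 62.4%. False calls were 1.16% to 4% of the calls.

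Members with full values are the 10 most abundant of each tissue, the 8 called members with the largest difference in each direction between tissues and, where no member was called, the 4 with the smallest p. Members of annotation classes are named too. miR-3962, miR-3964 and miR-3473 were named after their sequences were seen. The members and lists were chosen with earlier results of these data known. Alternatives were DESeq2 1.42.0, other scaling, no filter, summed lines, a replicate block, the fit of all 36 libraries for the diet comparisons and libraries left out.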

Additional observations from a re-analysis of the deposited data

Results flagged for a closer look

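Group values of the members given in full were checked for a library far from the other 5 of its group. Of 151 groups of 6 checked, 25 values stood apart by Dixon's ratio. Its cutoff marks about 1 in 20 groups by chance only where values are normally distributed, which was not tested for these levels. A value is always marked where the other 5 libraries held no count. Some members were also listed for a small p between diet groups, to which a single outlying library can lead. The 25 therefore cannot be compared with the rate of 1 in 20, and are a description. Many of the members with a marked value have few counts, and a gap then rests on single libraries. Of the 25, 7 were in liver LF replicate 4 or HF replicate 6, the libraries with the fewest members counted.

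In liver LF replicate 4 miR-3968 was lowest of its group at 515.6 CPM, against 1164 for the next. The same library was highest for miR-3970 at 24.7 CPM, miR-7688-5p at 18.6, miR-6412 at 13.7, miR-8112 at 11.0 and miR-6944-3p at 10.6. Liver HF replicate 6 was highest for miR-3572-3p at 8.12 CPM. Whether the small number of miRNAs counted in these 2 libraries bears on the values was not tested.

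The other liver values, each the highest of its group, were as follows. miR-6240 stood at 13.8 CPM in HF replicate 1 and miR-7688-5p at 1.12 in HF replicate 5. miR-7083-5p stood at 1.62 CPM in HF replicate 4, where miR-6944-3p stood at 0.304. miR-5114 stood at 1.40 CPM in LF replicate 2, miR-7667-5p at 0.866 in LF replicate 3 and miR-7236-3p at 0.573 in LF replicate 5. In HFLF, miR-6916-5p stood at 2.32 CPM in replicate 3 and miR-6964-5p at 2.73 in replicate 4. HFLF replicate 6 held 0.537 CPM for both miR-6392-5p and miR-6944-3p.

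In eWAT each was also the highest of its group. miR-3105-3p stood at 1.46 CPM in LF replicate 1 and 0.0962 in HF replicate 1, where the other 5 libraries held none. miR-3067-5p stood at 2.51 CPM in LF replicate 2, and miR-7688-5p at 14.5 in HFLF replicate 1. miR-7021-5p stood at 2.02 CPM in HF replicate 5 and 1.21 in HFLF replicate 3, and miR-6392-5p at 5.41 in HFLF replicate 6. Liver HFLF replicate 6 and eWAT HFLF replicate 6 both stood apart for miR-6392-5p, and nothing in the labels says that they come from 1 mouse.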

How the results depend on the processing

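By library totals alone the eWAT minus liver log2 difference turned to 0.16 for miR-3968, 0.30 for miR-5099, 0.52 for miR-5126, 0.48 for miR-3535 and 0.99 for miR-3068-5p. miR-3068-3p turned to -0.17 without liver LF replicate 4 and HF replicate 6, and with 1 library left out ranged from -0.038 to 0.22. miR-6516-5p ranged from -0.071 to 0.24 in the same way, and neither was called. The arm ratio of miR-3084 turned to -0.0825 without eWAT LF replicates 1 and 4. The cause was not tested. DESeq2 called 1 member between eWAT HFLF and LF and 2 in the interaction for HF. With 1 library left out at a time, the number of members called by edgeR ranged from 0 to 1 in each of these 2 comparisons. In the other diet comparisons and the interaction for HFLF it stayed at 0, and between the tissues it ranged from 56 to 64. A minimum of 10 counts of each arm in all 36 libraries left no arm pair to test.

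Replicate numbers are shared across groups. The deviations of libraries with the same number correlated at a median of 0.011 (-0.29 to 0.26) between diet groups of a tissue, over 0.1 in 6 of 36 pairs. Between liver and eWAT of 1 diet group, which may share a mouse, the median was 0.0084 (-0.061 to 0.15), over 0.1 in 1 of 18 pairs. The numbers were not taken to pair samples, and the tissue test was unpaired. A block by replicate number over all groups gave 59 members called between the tissues, 56 of them shared with the 58. It gave 0 in each diet comparison and interaction. It is not a block by mouse within a group, which was not tested. A total under 500 counts in 70 of 121 members limits what the diet comparisons can show.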
